A study of Homo sapiens with 12 samples.

Results

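The HOX cluster genes were taken as the rows of the deposited counts whose symbol is HOXA, HOXB, HOXC or HOXD followed by a number. They are 39 of the 25369 genes listed: 11 in cluster A, 10 in cluster B, 9 in cluster C and 9 in cluster D. RNA-seq was performed on U2OS cells, a human osteosarcoma line, in which doxycycline turns on the construct of each Tet-On line. The lines carried the empty pTRE vector, wild-type E2F1 (WT), E2F1 with lysine in place of the arginine R109 (R109K), or E2F1 with lysines in place of R111 and R113 (KK). All 4 lines, pTRE included, were grown with G418 and hygromycin B and received doxycycline at 1 µg/ml for 24 hours, and there were 3 biological replicates of each. Each construct was represented by 1 stable line, so that an effect of the construct and a difference between the lines cannot be told apart, and the labels do not say whether a line came from 1 cell.

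HOX genes encode homeodomain transcription factors that give the embryo's segments and limbs their identity. They lie in clusters, where genes with low numbers are switched on early and towards the head, and genes with high numbers later and towards the tail, and Polycomb and Trithorax complexes hold the clusters silent or active in adult cells. Genes with the same number in different clusters are paralogs, and cell lines keep a HOX profile that reflects their origin.

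Cluster A lies on the minus strand of chr7:27132612-27239710 in GRCh37, the build of the files, and spans 107.1 kb. Cluster B lies on the minus strand of chr17:46605888-46806112 and spans 200.2 kb. Cluster C occupies 117.2 kb on the plus strand of chr12:54332615-54449814, and cluster D occupies 98.2 kb on the plus strand of chr2:176957449-177055635.

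The answer to whether a whole cluster moves together differed between the clusters. In cluster A, transcripts were higher in the E2F1 lines at both ends of the cluster and none of its 11 genes was down-regulated. In cluster C, the estimates were below 0 for 8 of 8 genes tested in WT, 7 in R109K and 8 in KK. The median log2 fold change was -0.45, -0.24 and -0.37, and 1, 0 and 0 of these genes were down-regulated by 2-fold. Cluster B held rises and falls of less than 2-fold. Cluster D was divided, with HOXD10 and HOXD11 down-regulated in all E2F1 lines and HOXD8 increased in WT and KK.

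Between 11500537 and 31040903 reads per sample were counted on genes, and 3407 to 9499 of them on HOX genes. WT replicate 2 had the lowest total, with 58.7% of its reads assigned to no counted feature against 23.6 to 29.6% in the other samples. E2F1 itself was measured at 91.2 ± 9.43 CPM (reads per 1000000 normalised reads, mean ± SD, n = 3) in pTRE, 1811 ± 445 in WT, 1158 ± 196 in R109K and 1316 ± 187 in KK, and its endogenous and introduced copies are not separated in the counts. VIM, a mesenchymal marker, had a mean of 1303 to 1650 CPM in the lines. Of the other osteoblast and mesenchymal markers, COL1A1 was at 3557 CPM in pTRE and 567 CPM in WT, and the mean of COL1A2 was at most 0.290. The epithelial keratins KRT8 and KRT18 were present at 238 to 503 and 242 to 288 CPM, whereas PTPRC, which marks blood cells, had means of at most 0.460 CPM. Of 5 tested osteoblast and mesenchymal markers 2, 1 and 2 were down-regulated in WT, R109K and KK, of 5 epithelial markers 1, 0 and 0, and of 5 neural markers 2, 1 and 2, while of 3 haematopoietic markers 1 was up-regulated in each line. Over all genes tested, 7.89%, 4.64% and 7.01% were up-regulated in WT, R109K and KK, and 3.93%, 2.56% and 3.90% down-regulated. The part of the marker changes in the HOX values was not tested.

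Counts were compared with edgeR's quasi-likelihood test in a single fit over the 12 samples. A gene is called regulated here where the Benjamini-Hochberg adjusted p-value over 16625 genes was below 0.01 and the change exceeded 2-fold, a log2 fold change beyond 1. Of the 39 HOX genes, 34 passed the filter on low counts. The 5 that did not were HOXB1 with 0 to 1 reads per sample, HOXC12 with 0 to 2, HOXD13 with 0 to 4, HOXD12 with 0 to 8, and HOXD3 with 0 to 12. The comparisons of WT, R109K and KK with pTRE share the pTRE samples.

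In WT, 6 HOX genes were up-regulated and 3 were down-regulated, against a background of 7.89% of all genes tested up and 3.93% down. In R109K the numbers were 5 up and 2 down, against 4.64% and 2.56%. In KK they were 5 up and 2 down, against 7.01% and 3.90%. All the up-regulated members were in cluster A. In these bulk samples, fewer cells with a transcript and less of it per cell cannot be told apart. With no minimum fold, 9 HOX genes were higher and 6 lower in WT (all genes, 14.8% and 11.4%), 6 and 3 in R109K (10.0% and 7.23%), and 9 and 5 in KK (13.8% and 10.7%). The median log2 fold change over the 34 genes was 0.03 in WT, 0.24 in R109K and 0.15 in KK, and the median over all genes tested was within 0.01 of 0 in each comparison.

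**Figure D1:**
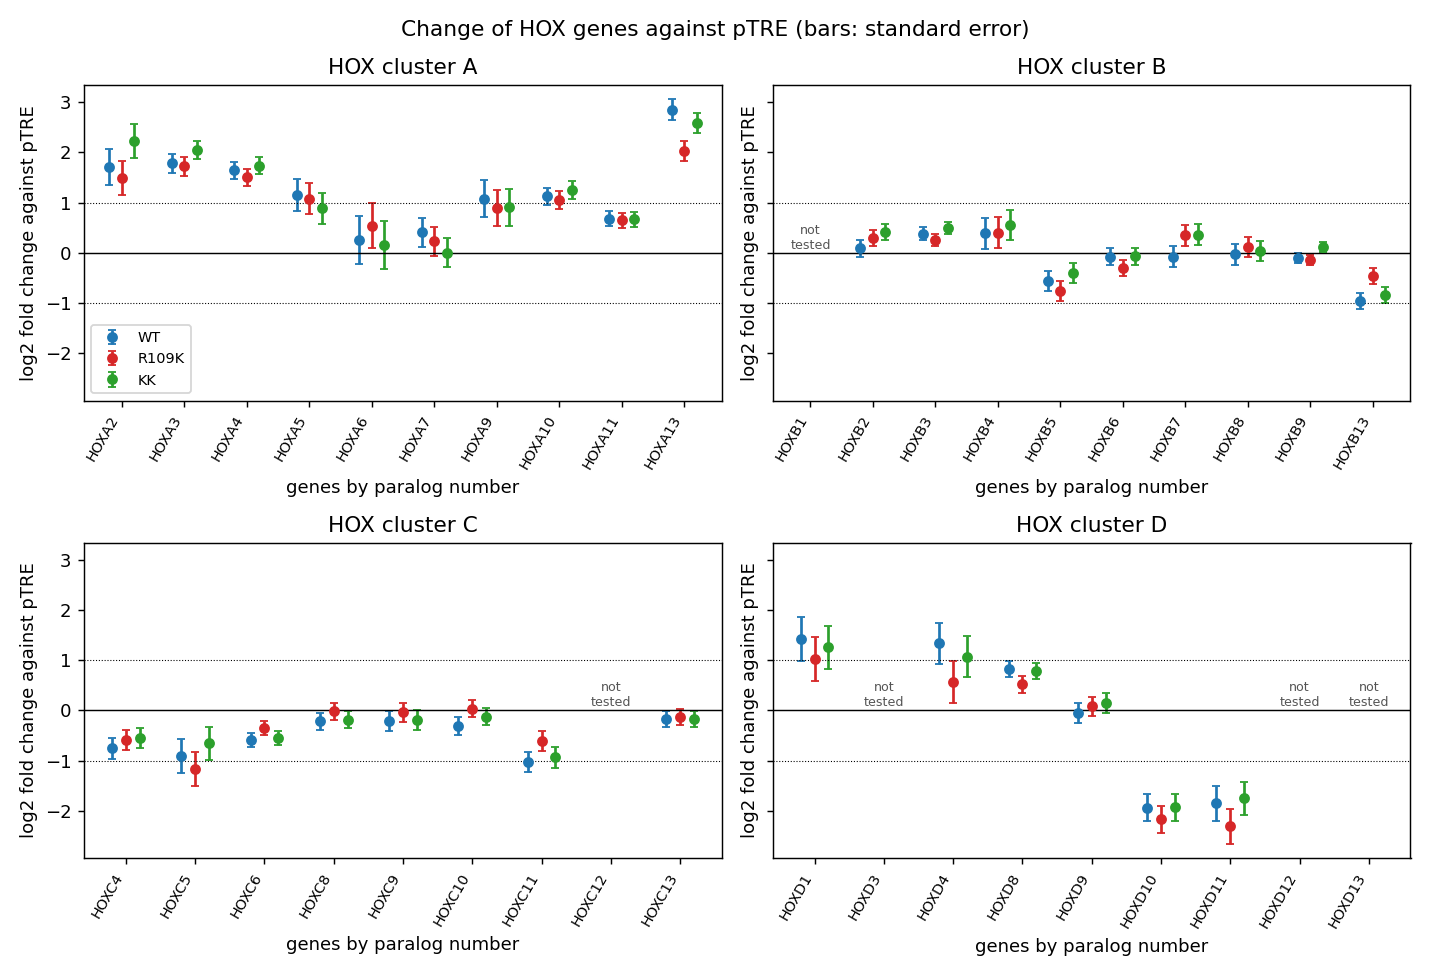
Log2 fold change of 33 of the 34 tested HOX genes against pTRE (vertical axis) by paralog number (horizontal axis) in the 4 clusters, with WT in blue, R109K in red and KK in green. Bars are standard errors and dotted lines mark 2-fold. Cluster A lies above 0 except for KK at HOXA7, cluster C mostly below 0, and in cluster D HOXD10 and HOXD11 stand near or below -1.75 while HOXD1, HOXD4 and HOXD8 are above 0.

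Summed over its 11 genes, cluster A was at 27.3 ± 1.05 CPM in pTRE, 68.2 ± 7.52 in WT, 57.3 ± 3.28 in R109K and 67.2 ± 4.30 in KK. The 3 pTRE samples were between 26.3 and 28.4 CPM and the 9 samples with an E2F1 construct between 55.2 and 76.2, without overlap. Cluster B had the highest sum and was at 157 ± 12.7 CPM in pTRE, 152 ± 16.3 in WT, 157 ± 2.89 in R109K and 177 ± 6.42 in KK. Cluster C was at 82.5 ± 1.96 CPM in pTRE and at 61.6 ± 6.89, 72.0 ± 10.3 and 65.4 ± 9.51 in WT, R109K and KK. Cluster D was at 26.0 ± 3.32, 27 ± 4.08, 23.5 ± 3.04 and 27.5 ± 1.57 CPM in pTRE, WT, R109K and KK, so that its total differed little while its members moved in opposite directions. With 3 samples against 3, an exact permutation test cannot give a p-value below 0.1, and the sums were not tested.

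**Figure D2:**
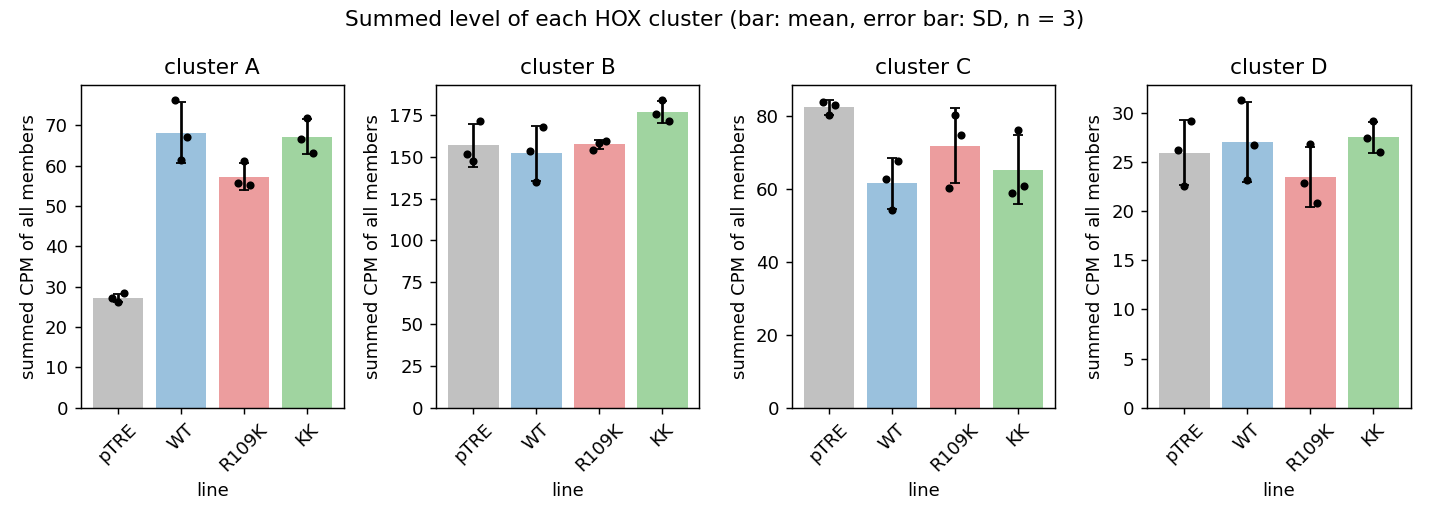
Summed CPM of all members of each HOX cluster (vertical axis) in the 4 lines (horizontal axis). Bars are means, error bars SDs of 3 replicates and dots the samples. The pTRE samples of cluster A, at 26.3 to 28.4, lie below all samples of the other lines. Those of clusters B and D overlap with WT, R109K and KK, and those of cluster C with R109K only.

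In cluster A, all 11 genes passed the filter. The estimate against pTRE was positive for 11 genes in WT, 11 in R109K and 10 in KK, and the median log2 fold change was 1.12, 1.05 and 0.90. In each of the 3 lines, 9 genes had all replicates above all pTRE replicates, but the share of all genes that did so was not computed. The adjusted p-value was below 0.01 for 8, 6 and 7 genes, all of them higher. Of all genes tested, 14.8%, 10.0% and 13.8% were higher at this threshold.

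HOXA13, the gene at the 5′ end of the cluster (chr7:27233122-27239710) and known for patterning the hands, feet and urogenital tract, rose most of all HOX genes tested in WT, R109K and KK. It was measured at 2.56, 1.79 and 2.31 CPM in pTRE, at 18.8, 15.7 and 13.6 in WT, at 9.27, 9.45 and 8.31 in R109K, and at 15.8, 9.99 and 14.0 in KK. All 9 samples with an E2F1 construct were above the pTRE samples, and the R109K samples were below those of WT and KK. The log2 fold change by edgeR was 2.85 ± 0.20 (SE, adjusted p = 7.39e-08) in WT, 2.02 ± 0.20 (adjusted p = 3.95e-06) in R109K and 2.58 ± 0.20 (adjusted p = 1.80e-07) in KK. Annotated exons of the noncoding RNA HOTTIP overlap with those of HOXA13 on the opposite strand, so that their counts may not be fully separate.

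At the 3′ end of the cluster, HOXA2, HOXA3 and HOXA4, which act in hindbrain and neck, were up-regulated in all 3 lines. HOXA3 (chr7:27145803-27192202) was at 1.78, 1.86 and 2.31 CPM in pTRE, 7.41, 6.50 and 6.58 in WT, 7.39, 5.56 and 6.72 in R109K, and 7.99, 9.60 and 7.22 in KK. Its log2 fold change was 1.78 ± 0.19 (adjusted p = 3.00e-06, edgeR) in WT, 1.72 ± 0.18 (adjusted p = 7.22e-06) in R109K and 2.05 ± 0.18 (adjusted p = 6.85e-07) in KK. HOXA4 (chr7:27168126-27170399) was at 2.19, 2.32 and 2.39 CPM in pTRE, 7.76, 5.78 and 7.84 in WT, 6.13, 6.69 and 6.84 in R109K, and 6.99, 8.59 and 7.5 in KK. The pTRE samples of both genes were clear of all the others. The increase of HOXA4 was 1.64 ± 0.17 (adjusted p = 2.82e-06, edgeR) in WT, 1.51 ± 0.17 (adjusted p = 1.10e-05) in R109K and 1.74 ± 0.17 (adjusted p = 1.55e-06) in KK on the log2 scale.

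HOXA2 (chr7:27139973-27142305) was of low abundance, at 0.661, 0.342 and 0.294 CPM in pTRE, 1.39, 1.77 and 1.16 in WT, 1.33, 1.27 and 1.02 in R109K, and 1.70, 2.30 and 2.09 in KK. The pTRE samples did not overlap with the others. Its log2 fold change was 1.71 ± 0.35 (adjusted p = 0.00134, edgeR) in WT, 1.49 ± 0.35 (adjusted p = 0.00470) in R109K and 2.23 ± 0.34 (adjusted p = 1.23e-04) in KK. The call in R109K was lost when pTRE replicate 2, pTRE replicate 3, R109K replicate 1 or R109K replicate 2 was left out, with adjusted p-values of 0.0165 to 0.0274 by edgeR. In a fit of the 6 samples alone, the adjusted p-value of HOXA2 in WT was 0.0101.

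HOXA10 (chr7:27210224-27219880), which acts in limb, uterus and blood progenitors, was at 4.96, 4.67 and 5.40 CPM in pTRE, 11.9, 9.15 and 11.5 in WT, 9.46, 11.5 and 10.2 in R109K, and 10.8, 15.0 and 10.0 in KK. No sample of the E2F1 lines was as low as those of pTRE. It rose on the log2 scale by 1.12 ± 0.17 (adjusted p = 1.27e-04, edgeR), 1.05 ± 0.17 (adjusted p = 3.23e-04) and 1.25 ± 0.17 (adjusted p = 4.76e-05) in WT, R109K and KK. Without R109K replicate 2 the value in R109K was 0.97, just under 2-fold.

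HOXA5 (chr7:27180671-27183300), a lung and skeletal patterning gene, passed both thresholds in WT and not in R109K or KK, but no direct comparison between these lines passed for this gene. It was at 1.16, 0.532 and 0.882 CPM in pTRE, 1.67, 2.57 and 1.59 in WT, 1.62, 2.07 and 1.72 in R109K, and 1.49, 1.63 and 1.62 in KK. The samples of all 3 E2F1 lines were above those of pTRE. The log2 fold change by edgeR was 1.15 ± 0.32 (adjusted p = 0.00941) in WT, 1.07 ± 0.31 (adjusted p = 0.0176) in R109K and 0.88 ± 0.32 (adjusted p = 0.0392) in KK. The call in WT was lost without pTRE replicate 2 or 3, or WT replicate 1 or 2, with adjusted p-values between 0.0148 and 0.0469, and in a fit of the 6 samples alone (adjusted p = 0.0393). In R109K it passed both thresholds with DESeq2 (1.08, adjusted p = 0.00798) and with edgeR in a fit of the 6 samples alone (1.07, adjusted p = 0.00672).

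HOXA11, the member of the cluster with the highest mean CPM over all 4 lines, though not in WT alone, where HOXA13 was higher, also rose in each line, but by less than 2-fold. It was at 7.97, 8.82 and 8.38 CPM in pTRE, 14.9, 11 and 14.2 in WT, 11.8, 15.3 and 12.3 in R109K, and 12.7, 15.2 and 12 in KK, again without overlap. It rose by 0.68 ± 0.15 (adjusted p = 0.00268, edgeR), 0.65 ± 0.15 (adjusted p = 0.00514) and 0.66 ± 0.15 (adjusted p = 0.00326). The middle of the cluster did not pass the test. HOXA6, at 0.207 to 0.648 CPM over all samples, had estimates of 0.26, 0.54 and 0.16, and those of HOXA7 were 0.41, 0.23 and -0.00 in WT, R109K and KK. For HOXA9 they were 1.07, 0.89 and 0.90, with adjusted p-values of 0.0289, 0.0811 and 0.0649, and all its replicates in each line were above those of pTRE.

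**Figure D3:**
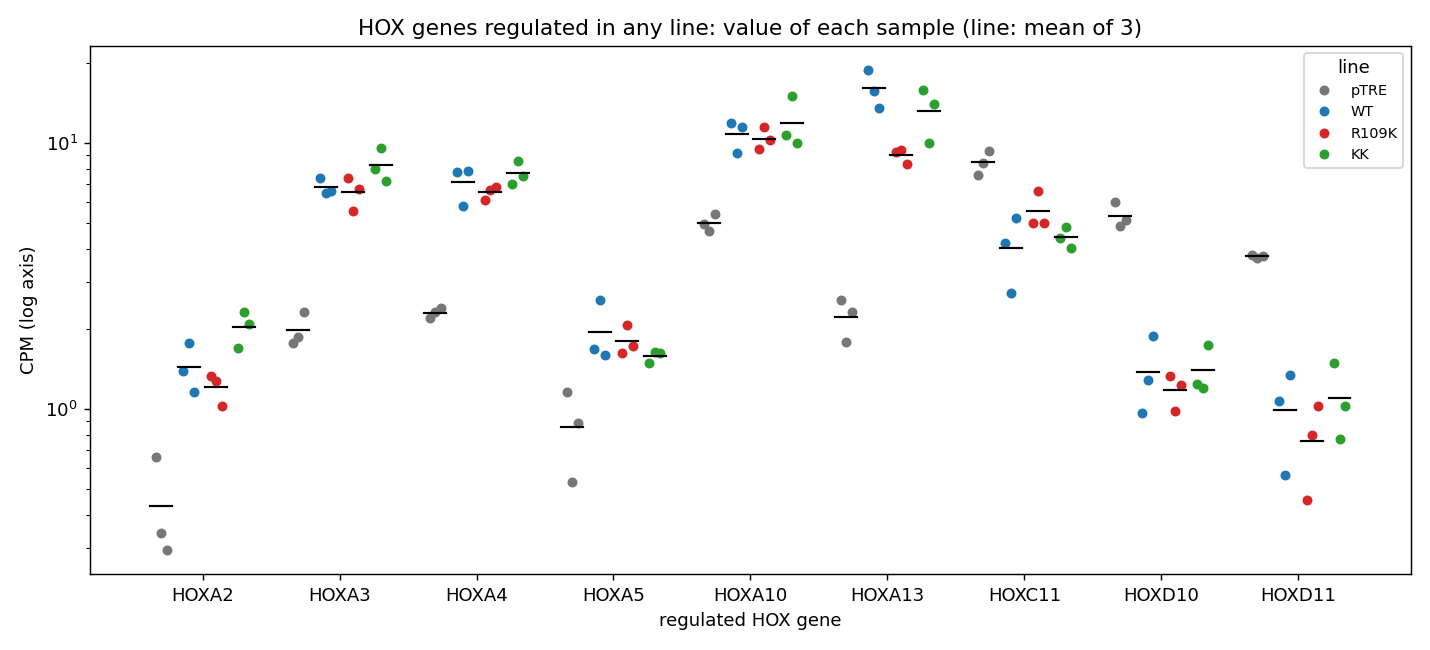
CPM on a log axis (vertical) of the 9 HOX genes that were regulated in at least 1 line (horizontal), with 1 dot per sample and a line at the mean of 3. For HOXA2, HOXA3, HOXA4, HOXA5, HOXA10 and HOXA13 the grey pTRE dots lie below those of all other lines, and for HOXC11, HOXD10 and HOXD11 above them.

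In cluster B, 9 of 10 genes passed the filter and none was regulated by 2-fold. The median log2 fold change was -0.08 in WT, 0.11 in R109K and 0.11 in KK, with 3, 5 and 6 of the 9 estimates above 0. HOXB9 was the most abundant HOX gene, both in CPM and per kilobase of its canonical transcript (24.7 CPM per kb in pTRE, followed by HOXB7 with 14.2). It was at 62.3, 62.3 and 67.3 CPM in pTRE, 60.4, 54.8 and 62.7 in WT, 59.3, 54.7 and 58.5 in R109K, and 72.4, 69.3 and 65.4 in KK. The pTRE values overlapped with those of WT and KK, and the 3 R109K values were slightly below them. The estimates were -0.11 ± 0.10 (adjusted p = 0.409, edgeR), -0.15 ± 0.10 (adjusted p = 0.282) and 0.11 ± 0.10 (adjusted p = 0.419).

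Transcripts of HOXB13, the outlying 5′ gene of the cluster with a role in the prostate, fell in WT and KK. It was at 9.54, 10.1 and 12.8 CPM in pTRE, 4.84, 6.18 and 5.82 in WT, 7.88, 8.28 and 7.45 in R109K, and 5.74, 6.87 and 5.61 in KK. All samples with an E2F1 construct were below those of pTRE. The log2 fold change by edgeR was -0.96 ± 0.16 (adjusted p = 2.57e-04) in WT, -0.46 ± 0.16 (adjusted p = 0.0375) in R109K and -0.84 ± 0.16 (adjusted p = 6.93e-04) in KK. In WT it passed 2-fold without pTRE replicate 1 (-1.04), pTRE replicate 2 (-1.0) or WT replicate 2 (-1.02). HOXB3 rose in KK by 0.49 ± 0.12 (adjusted p = 0.00557), and HOXB5 fell in R109K, with -0.76 ± 0.20 (adjusted p = 0.00978). The other tested genes, HOXB2, HOXB4, HOXB6, HOXB7 and HOXB8, did not pass in any line, and their estimates ran from -0.30 for HOXB6 in R109K to 0.55 for HOXB4 in KK. Annotated exons of HOXB4 and of HOXB6 overlap with those of HOXB3 on the same strand, so that their counts may not be fully separate.

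In cluster C, 8 of 9 genes were tested. The estimates were below 0 for 8 in WT, 7 in R109K and 8 in KK, with medians of -0.45, -0.24 and -0.37. The test was passed by 3 genes in WT, 0 in R109K and 2 in KK (edgeR), all of them lower. Of all genes tested, 11.4%, 7.23% and 10.7% were lower at that threshold. At an unadjusted p-value below 0.05 the numbers in cluster C were 4, 4 and 3, and the share of all genes was not computed.

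HOXC11 (chr12:54366910-54371427), a hindlimb gene, was the only member of cluster C that was down-regulated by 2-fold in the fit of all samples, in WT. It was at 7.60, 8.44 and 9.33 CPM in pTRE, 4.20, 2.73 and 5.20 in WT, 5.02, 6.61 and 5.0 in R109K, and 4.39, 4.85 and 4.03 in KK. No sample of the E2F1 lines reached those of pTRE. By edgeR the log2 fold change was -1.03 ± 0.21 (adjusted p = 0.00109, edgeR) in WT, -0.61 ± 0.20 (adjusted p = 0.0330) in R109K and -0.94 ± 0.20 (adjusted p = 0.00207) in KK. Its value in WT was -0.95 without pTRE replicate 3 and -0.85 without WT replicate 2, under 2-fold in both cases. In KK it passed both thresholds without pTRE replicate 1 (-1.01, adjusted p = 0.00478, edgeR) or KK replicate 2 (-1.005, adjusted p = 0.00390).

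HOXC6 fell by less than 2-fold in WT, with -0.59 ± 0.14 (adjusted p = 0.00378, edgeR), and in KK, with -0.56 ± 0.14 (adjusted p = 0.00555). HOXC4 fell in WT, with -0.75 ± 0.20 (adjusted p = 0.00855). HOXC5, at 0.486 to 1.91 CPM, had estimates of -0.91, -1.17 and -0.66 that did not pass. HOXC8 had the highest mean CPM over all 4 lines, close to HOXC10, with HOXC6 higher in pTRE and HOXC10 in R109K and KK. It was at 14.0, 13.9 and 14.2 CPM in pTRE, 11, 12.3 and 12.9 in WT, 10.7, 16.5 and 14.4 in R109K, and 10.3, 15.6 and 11.3 in KK. Its groups overlapped except in WT, and the estimates were -0.22, -0.02 and -0.18 (adjusted p = 0.331, 0.957 and 0.456, edgeR). HOXC9, HOXC10 and HOXC13 had estimates between -0.31 and 0.04 and passed in no line.

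In cluster D, 6 of 9 genes were tested. The median log2 fold change was 0.39, 0.30 and 0.47 in WT, R109K and KK, but the range was from -1.94 to 1.42 in WT, from -2.31 to 1.02 in R109K and from -1.93 to 1.26 in KK, so the median describes no gene of the cluster well. Genes with low numbers had estimates above 0 and those with high numbers below 0.

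HOXD10 (chr2:176973518-176984665), a regulator of limb and spinal cord motor neurons, was at 5.99, 4.86 and 5.14 CPM in pTRE, 0.962, 1.28 and 1.88 in WT, 1.33, 0.981 and 1.23 in R109K, and 1.25, 1.2 and 1.74 in KK. The highest sample with an E2F1 construct was far below the lowest pTRE sample. The log2 fold change was -1.94 ± 0.27 (adjusted p = 4.66e-05, edgeR) in WT, -2.17 ± 0.27 (adjusted p = 2.78e-05) in R109K and -1.93 ± 0.27 (adjusted p = 4.47e-05) in KK. HOXD11 (chr2:176968944-176974482), needed for the forearm and kidney, was at 3.80, 3.69 and 3.75 CPM in pTRE, 1.07, 0.562 and 1.34 in WT, 0.454, 0.799 and 1.02 in R109K, and 1.49, 0.768 and 1.03 in KK. Here too the lines did not overlap with pTRE. Its log2 fold change was -1.85 ± 0.34 (adjusted p = 5.67e-04, edgeR) in WT, -2.31 ± 0.35 (adjusted p = 1.61e-04) in R109K and -1.75 ± 0.34 (adjusted p = 7.89e-04) in KK. The annotated exons of HOXD10 and HOXD11 overlap on the same strand, so that the counts of the pair may not be fully separate.

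HOXD8, the member of cluster D with the highest CPM, was at 8.26, 7.41 and 9.77 CPM in pTRE, 18.1, 12.3 and 14.4 in WT, 12.4, 13.7 and 10.3 in R109K, and 14.1, 15.7 and 14.3 in KK. All samples of the E2F1 lines were above those of pTRE. It rose by 0.82 ± 0.16 (adjusted p = 0.00107, edgeR) in WT and 0.79 ± 0.16 (adjusted p = 0.00145) in KK on the log2 scale, with 0.52 ± 0.16 (adjusted p = 0.0277) in R109K. HOXD1, at 0.124 to 0.759 CPM, had estimates of 1.42, 1.02 and 1.26, and HOXD4, at 0.289 to 2.14 CPM, of 1.33, 0.56 and 1.08, none of which passed (smallest adjusted p = 0.0167, edgeR). HOXD9, between these genes and HOXD10, had estimates of -0.04, 0.08 and 0.15. Of the untested members, HOXD3 had 1, 0 and 2 reads in pTRE, 12, 3 and 6 in WT, 4, 9 and 4 in R109K and 7, 7 and 2 in KK, and HOXD12 had 3, 1 and 8 reads in pTRE and 0 to 1 in the others.

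As a description across genes, which are neighbours and share the pTRE samples, the rank correlation (Spearman's rho) of paralog number with log2 fold change was -0.94, -1 and -0.94 over the 6 tested genes of cluster D in WT, R109K and KK. It was -0.11, 0.03 and -0.06 over the 11 genes of cluster A, -0.70, -0.45 and -0.65 over the 9 of cluster B, and 0.40, 0.36 and 0.36 over the 8 of cluster C. Paralogs also parted. In group 10, HOXA10 was up-regulated and HOXD10 down-regulated in each line, while HOXC10 passed in none. In group 11, HOXA11 was higher in each line, HOXD11 was lower in each, and HOXC11 was lower in WT and KK. In group 13, HOXA13 was up-regulated in each line, HOXB13 was lower in WT and KK, and HOXC13 passed in none. In group 4, HOXA4 was up-regulated in each line and HOXC4 was lower in WT.

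The comparisons between the E2F1 lines ask whether loss of either set of arginines changes these genes. No HOX gene had an adjusted p-value below 0.01 by edgeR with or without a minimum fold, where 0.343% of all genes were regulated between R109K and WT, 0.00602% between KK and WT, and 0.0902% between R109K and KK. DESeq2 also called 0 at more than 2-fold. At an unadjusted p-value below 0.05 there were 3, 1 and 4 of the 34 HOX genes. The share of all genes at that cutoff was not computed, so these counts are not read as differences between lines. Between R109K and WT they included HOXA13 and HOXB13. HOXA13 was lower in all R109K samples than in all WT samples, with -0.83 ± 0.18 (adjusted p = 0.0220, edgeR), and than in all KK samples, with -0.56 ± 0.18 (adjusted p = 0.166). For R109K against WT its adjusted p-value was 0.00149 by DESeq2, with -0.84, and 0.0114 to 0.114 by edgeR with 1 replicate of either line left out. HOXB13 was higher in R109K than in WT by 0.50 ± 0.16 (adjusted p = 0.0982). E2F1 itself was lower in R109K than in WT, with -0.65 ± 0.18 (adjusted p = 0.0577), and its part in these values was not tested. Between KK and WT, the estimates of the 34 genes ran from -0.41 to 0.52.

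Windows around the gene starts were searched on both strands for 4 forms of the E2F site, TTTCCCGC, TTTCGCGC, TTTGCCGC and TTTGGCGC, in 900 bases before to 100 after the canonical GENCODE start of GRCh37. Of 14621 tested genes with a window, 1455 (9.95%) held a match. Of the 39 HOX genes, 1 did (2.56%), and of the 9 regulated HOX genes 0 did. The match was TTTCCCGC in HOXD8. In the shorter RefSeq windows of GRCh38.p14 (250 bases before to 50 after a start, 300 in all), 1 of 27 windows from 20 HOX genes held a match (3.70%), against 1164 of 35116 windows of all genes (3.31%). It was TTTCGCGC, in a window of HOXA3. Both matches are shown with the letters in capitals, HOXD8 from the plus strand of chr2:176993741-176993770 in GRCh37, and HOXA3 from the minus strand of chr7:27123135-27123164 in GRCh38.p14.
HOXD8: cgcgagcccttTTTCCCGCctcagaacgtt
HOXA3: cccgggtctgaTTTCGCGCctacagaaatg

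The 250 bases before the RefSeq start (GRCh38.p14) are given for 2 genes that rose and 2 that fell in all E2F1 lines, to show what the windows without a match hold. Capitals mark CG dinucleotides. The HOXA13 window (chr7:27200092-27200341, minus strand) has 40 of them and 78.0% G or C, and the HOXA4 window (chr7:27130758-27131007, minus strand) has 26 and 70.0%. The HOXD10 window (chr2:176116528-176116777, plus strand) has 23 and 64.0%, and the HOXD11 window (chr2:176107030-176107279, plus strand) has 23 and 61.6%. In the 300-base windows the median number of CG dinucleotides was 22 over the 27 windows of 20 HOX genes and 14 over the windows of all genes. Several of the 27 are from HOXA3, HOXC4 and HOXC5 have the same window, and HOXB1 is the only gene of cluster B among them. The 4 genes are examples, and nothing about the direction of change can be read from their CG numbers.
HOXA13: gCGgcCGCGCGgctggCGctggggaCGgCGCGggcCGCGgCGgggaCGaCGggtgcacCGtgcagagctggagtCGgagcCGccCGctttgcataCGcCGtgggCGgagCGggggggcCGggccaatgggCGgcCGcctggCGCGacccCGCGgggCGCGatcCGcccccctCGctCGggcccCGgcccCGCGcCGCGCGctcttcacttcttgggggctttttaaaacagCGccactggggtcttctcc
HOXA4: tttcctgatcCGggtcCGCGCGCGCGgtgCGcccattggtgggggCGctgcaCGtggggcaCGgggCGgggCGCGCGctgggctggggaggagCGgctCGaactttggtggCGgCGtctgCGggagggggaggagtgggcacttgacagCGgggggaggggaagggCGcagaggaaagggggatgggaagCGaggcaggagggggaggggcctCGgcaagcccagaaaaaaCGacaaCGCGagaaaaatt
HOXD10: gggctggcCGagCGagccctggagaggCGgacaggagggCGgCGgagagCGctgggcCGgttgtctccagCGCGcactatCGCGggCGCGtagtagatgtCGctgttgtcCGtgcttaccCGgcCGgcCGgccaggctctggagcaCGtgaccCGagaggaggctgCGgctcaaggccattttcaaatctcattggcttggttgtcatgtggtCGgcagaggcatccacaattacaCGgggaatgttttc
HOXD11: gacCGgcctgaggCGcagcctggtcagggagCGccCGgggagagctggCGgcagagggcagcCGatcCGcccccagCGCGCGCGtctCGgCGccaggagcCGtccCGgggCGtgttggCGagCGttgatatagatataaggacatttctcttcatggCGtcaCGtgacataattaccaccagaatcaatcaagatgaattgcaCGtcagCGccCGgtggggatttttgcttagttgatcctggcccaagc

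Noncoding RNAs of the clusters were followed as a list of 21, of which 13 passed the filter. In WT 2 were up- and 1 down-regulated, in R109K 2 and 0, and in KK 3 and 1. For this list and those below, the shares over all genes tested were 7.89% up and 3.93% down in WT. They were 4.64% and 2.56% in R109K, and 7.01% and 3.90% in KK. HOTTIP is known to activate the 5′ HOXA genes, and its annotated exons overlap with those of HOXA13 on the opposite strand. It was at 0.207, 0.266 and 0.257 CPM in pTRE, 2.17, 1.85 and 1.45 in WT, 0.713, 1.34 and 0.983 in R109K, and 1.56, 1.82 and 1.82 in KK. As for HOXA13, all samples with an E2F1 construct were above pTRE and those of R109K below WT and KK. The log2 fold change of HOTTIP was 2.87 ± 0.35 (adjusted p = 1.54e-05, edgeR) in WT, 2.03 ± 0.36 (adjusted p = 6.33e-04) in R109K and 2.80 ± 0.35 (adjusted p = 1.98e-05) in KK, and -0.85 ± 0.30 (adjusted p = 0.126) for R109K against WT.

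HOXA11-AS, antisense to HOXA11, was up-regulated in WT, with 1.11 ± 0.18 (adjusted p = 2.13e-04, edgeR), and in KK, with 1.08 ± 0.18 (adjusted p = 2.58e-04), and its value in R109K was 0.43 ± 0.18 (adjusted p = 0.0983). HOTAIRM1, a noncoding RNA of cluster A, rose by 0.90, 0.89 and 0.90 in WT, R109K and KK. HAGLR of cluster D, antisense to HOXD1, rose by 0.92 ± 0.15 (adjusted p = 1.96e-04) in WT, 1.05 ± 0.15 (adjusted p = 9.51e-05) in R109K and 1.17 ± 0.15 (adjusted p = 2.07e-05) in KK. Without pTRE replicate 1 the value in R109K was 0.92. The libraries were made with a directional kit, but the strand setting of the counting is not given in the sources used here, so that reads of overlapping sense and antisense genes cannot be told apart. This holds for HOXA13 and HOTTIP too.

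HOTAIR, transcribed from cluster C between HOXC11 and HOXC12 and known for its link to Polycomb silencing of cluster D, fell with its neighbour HOXC11. It was at 10.2, 9.77 and 9.11 CPM in pTRE, 3.67, 4.66 and 4.84 in WT, 4.31, 4.90 and 5.86 in R109K, and 3.84, 4.47 and 3.91 in KK. All samples of the E2F1 lines were below those of pTRE. The log2 fold change by edgeR was -1.15 ± 0.17 (adjusted p = 7.83e-05) in WT, -0.95 ± 0.16 (adjusted p = 4.92e-04) in R109K and -1.25 ± 0.17 (adjusted p = 3.46e-05) in KK, and -1.07 in R109K without R109K replicate 3.

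**Figure D4:**
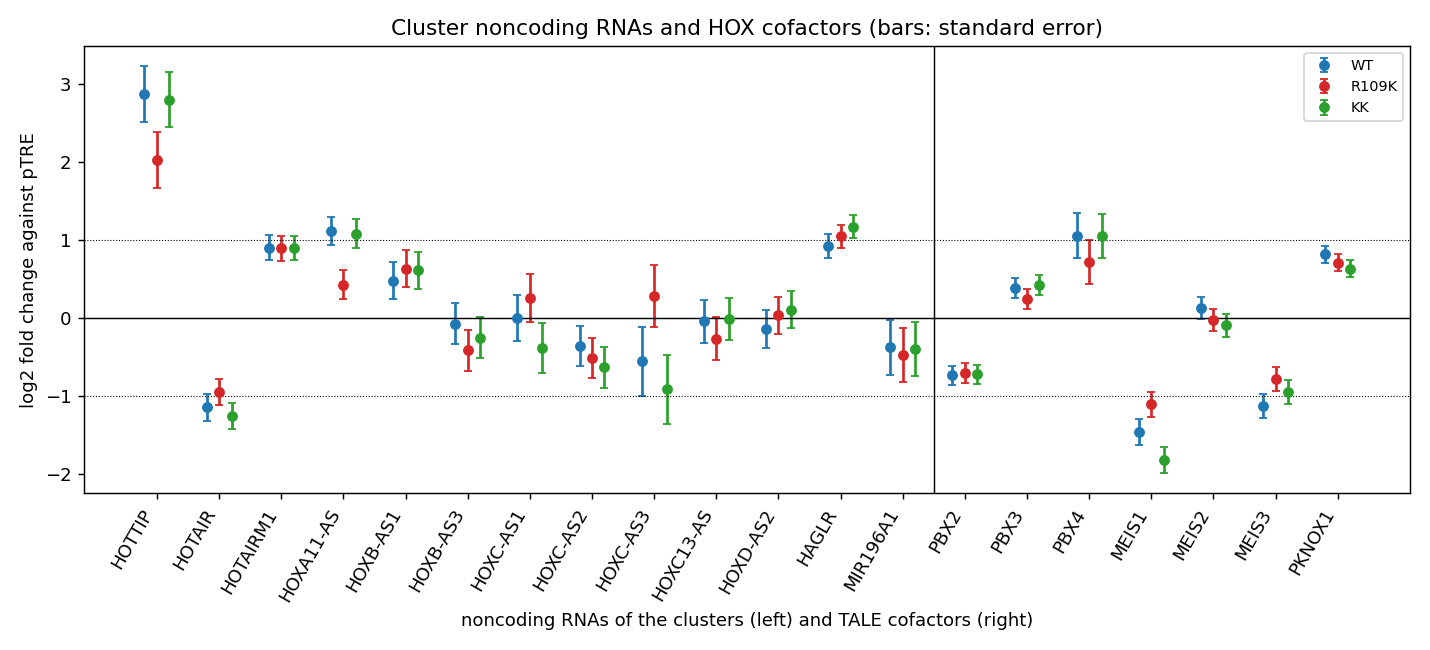
Log2 fold change against pTRE (vertical axis, bars are standard errors, dotted lines 2-fold) of the 13 tested noncoding RNAs of the HOX clusters and, right of the vertical line, 7 of the 8 tested TALE cofactors, with WT in blue, R109K in red and KK in green. HOTTIP stands highest, with 2.87, 2.03 and 2.80, while HOTAIR and MEIS1 lie between -0.95 and -1.82.

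HOX proteins bind DNA together with homeodomain cofactors of the TALE class, the PBX, MEIS and PKNOX proteins. Of 8 tested, 1 was up- and 3 down-regulated in WT, 0 and 2 in R109K, and 1 and 2 in KK, and the median log2 fold change was -0.30, -0.37 and -0.41. MEIS1 fell from 14.2 ± 1.74 CPM to 5.16 ± 0.216, 6.60 ± 1.35 and 4.03 ± 0.374, with log2 fold changes of -1.46, -1.11 and -1.82 (adjusted p = 7.43e-06, 1.23e-04 and 9.67e-07). The value of MEIS1 in R109K was -1.0, just under 2-fold, without R109K replicate 2. MEIS3 was down-regulated in WT (-1.13, adjusted p = 3.92e-05), and in KK it passed 2-fold without pTRE replicate 2 (-1.04) or KK replicate 2 (-1.08), while PBX4 was up-regulated in WT and KK (1.05 in both, adjusted p = 0.00914 and 0.00905, edgeR). The PBX4 call in WT was lost without WT replicate 2 or any 1 pTRE replicate (adjusted p = 0.0158 to 0.0404), and that in KK without KK replicate 1 or 2 or any 1 pTRE replicate (adjusted p = 0.0151 to 0.0469).

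Of 27 Polycomb subunits tested, 1 was up-regulated and 0 were down-regulated in each line. It was CBX7, a chromodomain reader of the Polycomb mark, at 28.9 ± 2.5 CPM in pTRE and 70.1 ± 7.0, 71.2 ± 3.32 and 68.3 ± 4.56 in WT, R109K and KK. Its log2 fold change was 1.28, 1.30 and 1.24 (adjusted p = 6.41e-07, 1.06e-06 and 8.23e-07, edgeR). Under 2-fold, EZH2, CBX2, PHF19 and PHC2 were higher at an adjusted p-value below 0.01 in each line. EED was higher at this threshold in WT and KK, and RBBP7 in KK. EZH2 rose by 0.81, 0.60 and 0.73 in WT, R109K and KK (adjusted p = 3.50e-05, 7.34e-04 and 9.04e-05, edgeR). RING1 was the only subunit that was lower at this threshold, in WT, with -0.70 (adjusted p = 0.00315, edgeR). Of all genes tested, 14.8%, 10.0% and 13.8% were higher at this threshold in WT, R109K and KK, and 11.4%, 7.23% and 10.7% lower. Of 15 genes of the Trithorax and H3K27 demethylase list, DOT1L, an H3K79 methyltransferase, was up-regulated in WT (1.01, adjusted p = 5.23e-05), 0 were regulated in R109K and KK, and 0 fell by 2-fold. DOT1L was below 2-fold without pTRE replicate 1 (0.90) or WT replicate 2 (0.87). Under 2-fold, ASH2L rose by 0.61, 0.65 and 0.69 in WT, R109K and KK (adjusted p = 2.30e-04, 2.03e-04 and 7.18e-05, edgeR). DOT1L rose by 0.62 in R109K and 0.85 in KK (adjusted p = 0.00388 and 2.51e-04, edgeR). KDM6B fell, with -0.82 in R109K and -0.83 in KK (adjusted p = 1.89e-04 and 1.16e-04, edgeR). KDM6A, also an H3K27 demethylase, rose in WT, with 0.67 (adjusted p = 0.00193, edgeR), and did not pass in R109K or KK.

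Retinoic acid and CDX factors induce HOX genes in the embryo. Of 12 genes of this list tested, 1 was up- and 2 down-regulated in WT, 0 and 1 in R109K, and 1 and 1 in KK. STRA6, the cell's receptor for retinol, fell by 2.07, 2.09 and 1.26 on the log2 scale (adjusted p = 7.88e-05, 1.01e-04 and 0.00283, edgeR), and the call in KK was lost without pTRE replicate 1 (adjusted p = 0.0187) or KK replicate 3 (adjusted p = 0.0146). The receptor RARG was down-regulated in WT, with -1.02 (adjusted p = 2.45e-05), but was at -0.96 without pTRE replicate 3 and -0.90 without WT replicate 2. ALDH1A3, which makes retinoic acid, was up-regulated in WT (1.53, adjusted p = 0.00172) and KK (1.24, adjusted p = 0.00704). Without pTRE replicate 1 the adjusted p-value of ALDH1A3 was 0.0107 in WT, and in KK it was 0.0104 to 0.0471 without KK replicate 1 or 3 or any 1 pTRE replicate.

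Of 14 tested genes on either side of the clusters, 2 were up-regulated in WT, 1 in R109K and 1 in KK, and 0 were down-regulated. SNX10, a sorting nexin 718.6 kb beyond the 3′ end of cluster A, rose from 11.9 ± 0.234 CPM to 63.6 ± 12.4, 45.6 ± 2.67 and 62.1 ± 11.6, with log2 fold changes of 2.42, 1.94 and 2.38 (adjusted p = 3.41e-08, 5.76e-07 and 4.26e-08, edgeR). SKAP1, 98.3 kb from HOXB1, rose in WT (1.39, adjusted p = 0.00237), a call lost without pTRE replicate 2 (adjusted p = 0.0152). SKAP2, 97.8 kb beyond that end and thus nearer than SNX10, had a mean of 0.635 CPM or less in each line and its estimates of -0.39, -0.12 and -0.60 did not pass. HIBADH, 325.4 kb beyond HOXA13, had estimates of -0.32, -0.17 and -0.37, and EVX1, 42.6 kb from HOXA13, was near 0 CPM and was not tested. TAX1BP1, 539.2 kb beyond HOXA13, rose by less than 2-fold. Its estimates were 0.52, 0.46 and 0.57 in WT, R109K and KK (adjusted p = 0.00627, 0.0189 and 0.00380, edgeR).

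Of 34 tested homeobox genes outside the clusters, 10 were up- and 2 down-regulated in WT. The numbers were 8 and 0 in R109K, and 12 and 1 in KK. Of all genes tested, 7.89%, 4.64% and 7.01% were up-regulated in WT, R109K and KK, and 3.93%, 2.56% and 3.90% down-regulated. The median log2 fold change of the homeobox genes was 0.40, 0.50 and 0.57. The changes in WT were largest for PITX3 (5.24, 4.18 and 5.17), LHX2 (3.87, 3.24 and 3.85), PDX1 (3.57, 3.20 and 3.54) and EMX1 (2.26, 2.04 and 2.29 in WT, R109K and KK), each with an adjusted p-value of at most 1.83e-04 by edgeR in all 3 lines. The first 3 of these were at or below 0.132 CPM on average in pTRE, so their fold changes are imprecise.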

How the data were processed

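The authors deposited whole-number counts of reads per gene for each of the 12 samples, without normalization. Per the labels and the methods, mRNA was selected by poly(A), libraries were made with a directional kit, and reads were trimmed with Trim Galore 0.4.3 and aligned to hg19 with STAR 2.5.1. The gene annotation and the strand setting are not given in the sources used here. The 5 summary lines (34.3 to 68.8% of reads per sample) were kept out of library sizes and tests, and 0 columns of sample values were left out.

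Low counts were filtered with filterByExpr, TMM factors were used, and all 4 lines were fitted together with the quasi-likelihood functions of edgeR 4.0.16 in R 4.3.3. Adjustment of p-values (Benjamini-Hochberg) covered 16625 genes, and thresholds are those of the study's methods. The common dispersion was 0.0239, and no pair of replicates agreed within sampling noise. Positions and transcript lengths come from GENCODE 44 on GRCh37. Promoter windows come from RefSeq (GRCh38.p14). The script was tested on simulated data.

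The members and gene lists were chosen with earlier results of these data known. Values per sample are given for each HOX gene regulated in any comparison and the gene of highest mean CPM over all samples in each cluster, and at most 4 regulated genes are named per list. HOXB13 values, values per sample of HOTTIP and HOTAIR, and values of EZH2, RING1, ASH2L, KDM6A, KDM6B and TAX1BP1 were added after their values were seen. So were the names of CBX2, PHF19, PHC2, EED and RBBP7. Values of 1 tested HOX gene and 1 cofactor are not reported here and are not plotted, and both remain in the counts, sums and medians. Alternatives were DESeq2 1.42.0, RLE normalization, other count filters, fits of 6 samples, the replicate number as a block, other thresholds and leaving out each replicate.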

Additional observations from a re-analysis of the deposited data

How the results depend on the processing

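The number of regulated HOX genes, 9 in WT, 7 in R109K and 7 in KK, stayed within 1.5 times under all alternatives except changes of the fold rule. Tested against 2-fold with glmTreat it was 4 in WT and 4 in R109K, and with no minimum fold it was 15 in WT and 14 in KK. DESeq2 gave 10, 8 and 7. With 1 replicate left out, the counts were 8 to 10, 5 to 7, and 7 to 8. The count between E2F1 lines was 0 under each alternative. Except with no minimum fold, shares of all genes under the alternatives are not given here. These counts therefore describe only how far the HOX calls held. The median of cluster A in KK ran from 0.86 to 1.15 with 1 replicate left out. That of cluster B ran from -0.087 to 0.28 in R109K and from 0.080 to 0.20 in KK, and in KK it was 0.12 with DESeq2, RLE normalization, a minimum of 10 counts or the 6 samples alone, and 0.23 with no filter. The median of cluster D was 0.092 in WT and 0.14 in KK with no filter, and -0.031 and 0.16 with a minimum of 10 counts, since these filters change which members enter. HOXC8 in R109K, with an estimate of -0.02, was at 0.14 without R109K replicate 1 and ran from there to -0.16 with 1 replicate left out, and the cause was not tested.

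The labels do not tie samples of the same replicate number to each other, and their deviations did not correlate in every pair. The mean correlation over 18 pairs was 0.0436 (-0.295 to 0.470), and 7 of 12 samples were closest to a sample of their own number, so that some pairs may share a source of variation. With the number as a replicate block, 8, 7 and 7 HOX genes were regulated, and HOXA5 in WT had an adjusted p-value of 0.0161 by edgeR. The depth of WT replicate 2 limits genes below about 1 CPM most.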
